A study of Mus musculus with 8 samples.

Results

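The proteasome subunit genes were followed here in mouse bone marrow-derived macrophages. They were the genes of the deposited table whose symbol begins with Psma, Psmb, Psmc, Psmd or Psme and a digit, without the immunoproteasome subunits Psmb8, Psmb9 and Psmb10, and with at least 1 RPKM (reads scaled by exon length and library depth) in at least 2 of 8 libraries. Of 42 matching symbols 41 met this level, out of 24940 genes in the table. Psmb11, the thymus-specific subunit, reached at most 0.053 RPKM and was left out. The 41 genes comprise 31 subunits of the standard proteasome, 3 assembly chaperones, 5 activators or activator-like genes, the testis-specific subunit Psma8, and Psmc3ip, a meiotic recombination factor that shares the prefix and is no subunit.

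The proteasome degrades proteins that carry a ubiquitin chain. Its barrel-shaped 20S core has outer rings of Psma subunits and inner rings of Psmb subunits, of which Psmb5, Psmb6 and Psmb7 cut the protein chain. The 19S cap has a ring of Psmc ATPases that unfold the substrate and Psmd subunits that bind and deubiquitinate it, and the Psme genes encode alternative caps that open the core. In macrophages and osteoclast precursors the proteasome also destroys the inhibitor of NF-kappaB downstream of the receptor RANK.

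Macrophages were grown from bone marrow of C57BL/6 mice aged 6 to 8 weeks in M-CSF, the growth factor of this lineage, at 5 ng/ml for 16 h and then at 30 ng/ml for 3 days. The 4 groups were TMBIM6sh with RANKL, TMBIM6sh without RANKL, NCsh with RANKL and NCsh without RANKL, each with 2 libraries. All stayed in M-CSF at 30 ng/ml, and RANKL, the cytokine that induces osteoclast formation, was added at 100 ng/ml over 24 h in the RANKL groups. Titles alone tell which samples went without RANKL, since the treatment field reads alike for every sample. The labels do not expand the name NCsh. They name a single hairpin against Tmbim6, so its loss cannot be told apart from other effects of that hairpin. Nothing in the labels says that duplicates came from separate animals or cultures, so p-values measure only the spread between these libraries, which may be technical.

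The libraries held 25475000 to 28595000 tags each, and the 41 genes had 47 to 11253 tags per library, with at least 972 for every standard subunit. Tmbim6, the hairpin's target, stood at 10.0 and 10.5 RPKM in TMBIM6sh cells with RANKL, against 309 and 321 RPKM in NCsh cells with RANKL. Where RANKL was left out it had 11.1 and 11.7 RPKM in TMBIM6sh cells, against 330 and 334 RPKM in NCsh cells. All 9 macrophage markers in the table were at or above 1 RPKM in every library. Their summed level was 7503 to 8118 RPKM in TMBIM6sh cells with RANKL, 8592 to 8600 RPKM in TMBIM6sh cells without it, 9203 to 9280 RPKM in NCsh cells with RANKL and 9399 to 10798.5 RPKM in NCsh cells without it. Lyz2 made up most of each sum, at 5280 to 8071 RPKM. Adgre1 alone had a higher mean with RANKL. It was 861 against 747 RPKM in TMBIM6sh cells and 879 against 817 RPKM in NCsh cells. The other markers had lower means with RANKL under each hairpin. Of 8 osteoclast markers 2 or 3 reached 1 RPKM. Acp5 ran from 50.9 to 64.7 RPKM over the libraries and Atp6v0d2 from 6.47 to 14.9 RPKM, while Dcstamp reached at most 1.61 RPKM. With RANKL against without it, mean Acp5 was 60.1 and 52.1 RPKM in TMBIM6sh cells and 60.0 and 60.9 RPKM in NCsh cells. For Atp6v0d2 these means were 6.71 and 9.92 RPKM, and 12.2 and 14.9 RPKM. Ctsk and Calcr stayed at or below 0.075 and 0.011 RPKM. Of 6 neutrophil markers S100a8 alone reached 1 RPKM, and the list summed to 11.5 to 15.5 RPKM in TMBIM6sh cells, against 22.5 to 28.1 RPKM in NCsh cells, with Ly6g at 0 throughout. Lists for lymphocytes, dendritic cells and erythroid or mast cells summed to at most 0.141, 1.13 and 0.045 RPKM, and the stromal list to 1.90 to 2.84 RPKM. In such bulk samples fewer cells of a type and less RNA per cell cannot be told apart, and the part of these shifts in the results below was not tested.

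The duplicates of NCsh cells without RANKL differed in the proteasome genes as a whole. In library 2 of this group 37 of 41 genes were above library 1, with a median log2 difference of 0.18, while the median over the 11040 genes tested was 0.01. In the other groups 33, 14 and 30 of the 41 genes were higher in library 2, for TMBIM6sh with RANKL, TMBIM6sh without RANKL and NCsh with RANKL, with medians of 0.10, -0.03 and 0.04. Over all genes tested 66.1%, 54.9% and 49.6% were higher in library 2 of these groups, with medians of 0.05, 0.01 and 0.00, and 53.0% in NCsh cells without RANKL. The medians of the pairwise comparisons with NCsh cells without RANKL are also given without each of these libraries.

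Promoter windows were searched for short motifs, since subunit genes are known to share the transcription factors NRF1 and NF-Y. Matching stretches are printed for Psmb5, Psmb6, Psme4 and Psme3 alone. Whether other members have a match, among them Psmb7 and most genes that changed below, is not given gene by gene. RefSeq windows of 300 bases, mostly upstream of the start site (GRCm38.p6, the mm10 assembly), were found for 34 of the 41 genes, 37 windows in all. TGACNNNGC, the core of the antioxidant response element bound by NRF1 and NRF2, is in capitals in stretches near the start sites of Psmb5 (chr14:54618024-54618052, minus strand) and Psmb6 (chr11:70525338-70525366, plus strand). Its reverse complement is in capitals in that of Psme4 (chr11:30771758-30771786, plus strand), where it begins 7 bases before the start site and runs over it. Each is printed 5′ to 3′ along the gene:
Psmb5: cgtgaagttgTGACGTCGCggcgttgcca
Psmb6: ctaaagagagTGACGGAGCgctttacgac
Psme4: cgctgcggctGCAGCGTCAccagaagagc

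Psme3 has CCAAT, the box bound by NF-Y, as its reverse complement ATTGG, in capitals, at chr11:101316187-101316215, plus strand:
Psme3: ggagtgccggcgATTGGctgtgacgcaac

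Searched on both strands, TGACNNNGC was in 6 of the 37 windows (16.2%), against 14.7% of the 10886 windows of genes tested and 12.4% of all 32851 windows in the table. Counted by gene it was in 17.6% of the 34 genes and in 17.3% of the genes tested. CCAAT was in 13 windows (35.1%), against 37.9% and 37.4%, and the core of the interferon-stimulated response element (ISRE) in 4 (10.8%), against 3.21% and 3.44%. Whether matches of different motifs overlap was not tested. A match describes the letters of the window and not a bound site.

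The transcripts of the standard subunits spanned a moderate range. Over all libraries the mean level of the 31 genes had a median of 61.1 RPKM and ran from 34.9 RPKM for Psmd3 to 170 RPKM for Psmd8, both structural subunits of the 19S lid. Among the alpha ring genes Psma3 was lowest at 36.7 RPKM and Psma6 highest at 108 RPKM. Beta ring genes lay closer together, from 64.4 RPKM for Psmb2 to 107 RPKM for Psmb6. The ATPases ranged from 43.5 RPKM for Psmc6 to 81.3 RPKM for Psmc1. Psmd2, a scaffold subunit of the 19S base, stood apart from most of its class at 118 RPKM. The chaperones that assemble the 19S base were lower, at 8.63 RPKM for Psmd9, 18.9 RPKM for Psmd5 and 23.5 RPKM for Psmd10. Psma8 and Psmc3ip were at 2.06 and 3.19 RPKM.

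**Figure D1:**
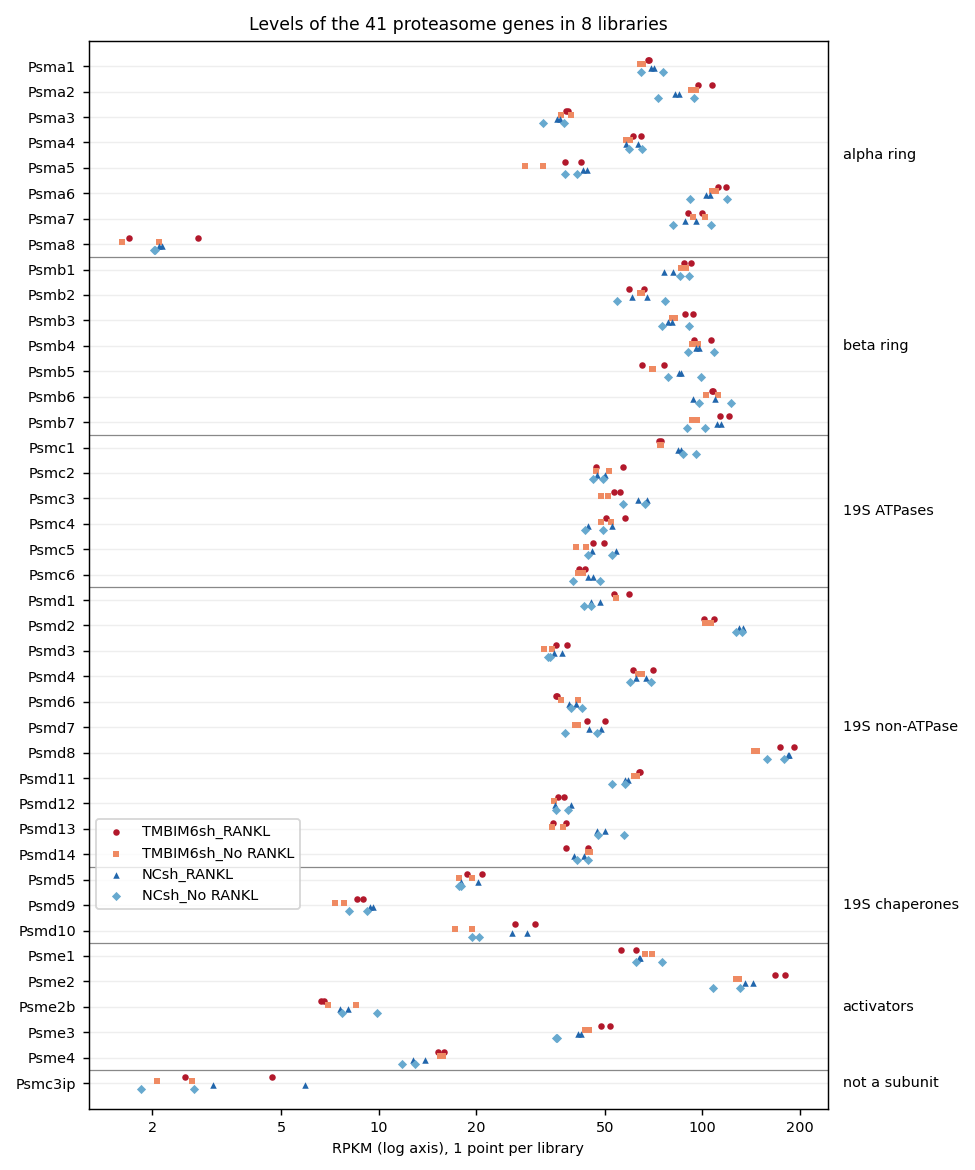
Level of each of the 41 genes in RPKM on a log axis, 1 point per library, with colours and shapes for the 4 groups and horizontal lines between roles. The standard subunits lie between about the levels of Psmd3 and Psmd8 in every group, and the chaperones, Psma8 and Psmc3ip lie to their left.

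Summed over the 14 subunits of the 20S core, the level was 1160 ± 57.0 RPKM in TMBIM6sh cells with RANKL, 1092 ± 30.5 RPKM in TMBIM6sh cells without it, 1109 ± 34.1 RPKM in NCsh cells with RANKL and 1121 ± 155 RPKM in NCsh cells without it (SD, n = 2 each). The 17 subunits of the 19S cap summed to 1033 ± 62.3 RPKM in TMBIM6sh cells with RANKL, 967 ± 10.2 RPKM in TMBIM6sh cells without it, 1079 ± 30.6 RPKM in NCsh cells with RANKL and 1052 ± 81.7 RPKM in NCsh cells without it. The 20S sums of the groups differed by less than the spread of the NCsh duplicates without RANKL. No permutation test of 2 libraries against 2 can pass, since its smallest two-sided p is 0.333, and none was run.

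Differences were tested in 1 limma fit over all 11040 genes on log2(RPKM + 1), in which a gene counts as called at a Benjamini-Hochberg adjusted p under 0.05. Values below are log2 differences with their standard error (SE) and adjusted p from that fit. Of the 41 genes 13 were called in at least 1 comparison and 28 in none. The matching share over all genes tested was not counted, so these counts do not set the 41 genes apart. No member was called with a difference of 1 log2 unit or more in any comparison, while 53 to 120 of all genes were in each of the 4 pairwise comparisons.

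**Figure D2:**
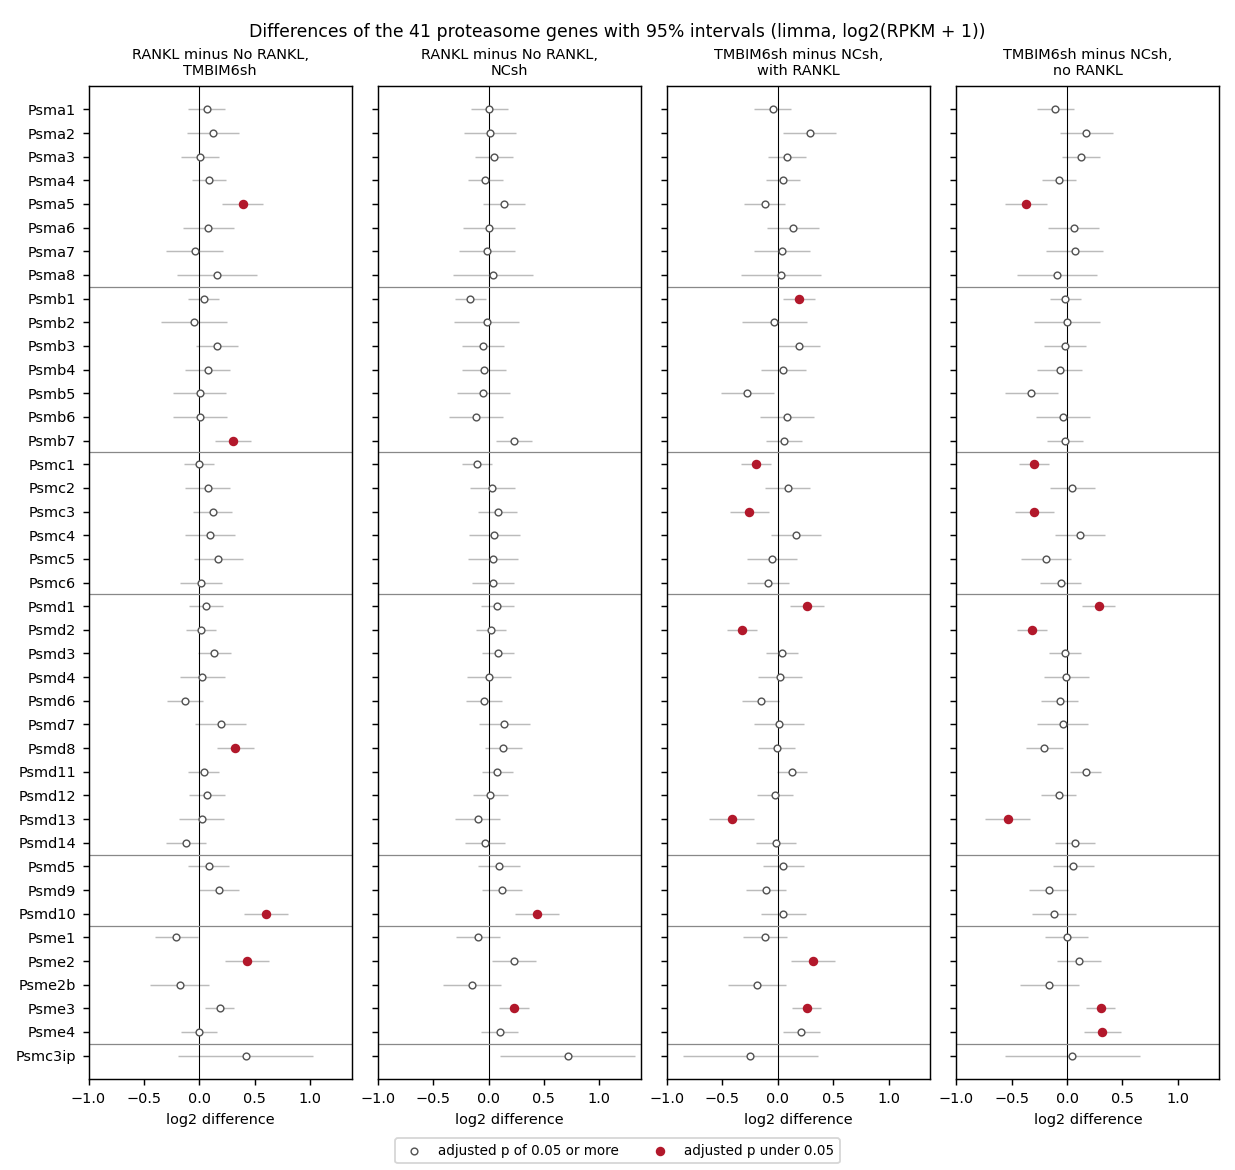
Log2 differences of the 41 genes with 95% intervals in the 4 pairwise comparisons, filled points having an adjusted p under 0.05. Filled points lie right of 0 in both RANKL comparisons and on both sides in the hairpin comparisons, and those in the 19S classes left of 0 are Psmc1, Psmc3, Psmd2 and Psmd13.

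RANKL was asked first for its effect within each hairpin. In TMBIM6sh cells 5 of the 41 genes were higher with RANKL (12.2%) and 0 lower, where 8.53% of all genes tested were higher and 6.89% lower. In NCsh cells 2 were higher (4.88%) and 0 lower, where 11.0% of all genes were higher and 3.98% lower. The median difference over the 41 genes was 0.08 in TMBIM6sh cells, against 0.02 over all genes, and 0.04 in NCsh cells, against 0.06. Without library 1 of NCsh cells without RANKL the NCsh median was -0.05, without library 2 it was 0.12, and under median-ratio scaling it was -0.05. At an unadjusted p under 0.05, 8 of the 41 genes in TMBIM6sh cells and 6 in NCsh cells passed in either direction, where 3156 and 3331 of the 11040 genes tested did. Both libraries with RANKL were above both without for 18 genes and below for 4 in TMBIM6sh cells, where 32.2% and 26.2% of all genes did the same, and for 12 and 2 in NCsh cells, where 39.0% and 17.1% did.

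Psmd10 (gankyrin, chrX:140948425-140956711, mm10) was higher with RANKL under both hairpins, and it was the only gene called in both RANKL comparisons. This chaperone helps to assemble the ATPase ring of the 19S cap and is also known as an oncoprotein that binds the retinoblastoma protein. It stood at 26.4 and 30.3 RPKM in TMBIM6sh cells with RANKL, against 19.5 and 17.2 RPKM in TMBIM6sh cells without it. With the NCsh hairpin it had 25.9 and 28.7 RPKM with RANKL, against 19.4 and 20.4 RPKM without it. The 4 libraries with RANKL were thus all above the 4 without. The difference was 0.60 in TMBIM6sh cells (SE 0.0891, adjusted p = 0.00162) and 0.44 in NCsh cells (SE 0.0891, adjusted p = 0.0108). The first was called under all 13 alternatives. The second was lost without library 2 of NCsh cells with RANKL (adjusted p = 0.0804) and with no filter on low values (adjusted p = 0.0526). The other 19S chaperones, Psmd5 and Psmd9, were not called in any comparison.

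The caps encoded by the Psme genes did not move together. Psme1 and Psme2 encode the alpha and beta subunits of PA28, a cap known for its induction by interferon and its role in making peptides for MHC class I. Psme2 (chr14:55587440-55591021) stood at 168 and 180 RPKM in TMBIM6sh cells with RANKL, against 127 and 130 RPKM in TMBIM6sh cells without it. Its NCsh values were 136 and 144 RPKM with RANKL, against 108 and 131 RPKM without it. RANKL libraries were higher than their counterparts under each hairpin, and the TMBIM6sh libraries with RANKL were the highest of all. The difference with RANKL was 0.44 in TMBIM6sh cells (SE 0.0886, adjusted p = 0.0092), and 0.23 in NCsh cells (adjusted p = 0.112), where it did not pass. The TMBIM6sh call was lost without either TMBIM6sh library lacking RANKL (adjusted p = 0.0713 and 0.0546), without library 2 of TMBIM6sh cells with RANKL (adjusted p = 0.07) and with no filter (adjusted p = 0.0517). Without library 2 of NCsh cells without RANKL the NCsh difference was 0.37 (adjusted p = 0.00912), and without library 1 of that group it was 0.09 (adjusted p = 0.395), so its size rests on which of these duplicates is kept.

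Psme1 (chr14:55578494-55581527), its partner, stood at 56.0 and 62.3 RPKM in TMBIM6sh cells with RANKL, against 69.9 and 66.7 RPKM in TMBIM6sh cells without it. For NCsh cells the values were 63.7 and 64.3 RPKM with RANKL, against 62.5 and 75.1 RPKM without it. The TMBIM6sh groups did not overlap and ran opposite to Psme2, but the difference of -0.21 did not pass (adjusted p = 0.157), and neither did -0.10 in NCsh cells (adjusted p = 0.507). Leaving out library 1 or library 2 of NCsh cells without RANKL brought the TMBIM6sh difference past the threshold (adjusted p = 0.0469 and 0.0463). Psme2b, a near copy of Psme2 whose reads the counting could split with it, was between 6.67 and 9.93 RPKM in all libraries and was not called in any comparison.

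The ratio of Psme2 to Psme1, chosen after the values were seen and given without a test, was 3.01 and 2.89 in TMBIM6sh cells with RANKL, against 1.82 and 1.95 in TMBIM6sh cells without it. It was 2.13 and 2.24 in NCsh cells with RANKL, against 1.72 and 1.75 in NCsh cells without it. The 4 groups did not overlap, and each RANKL group lay above its counterpart.

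**Figure D3:**
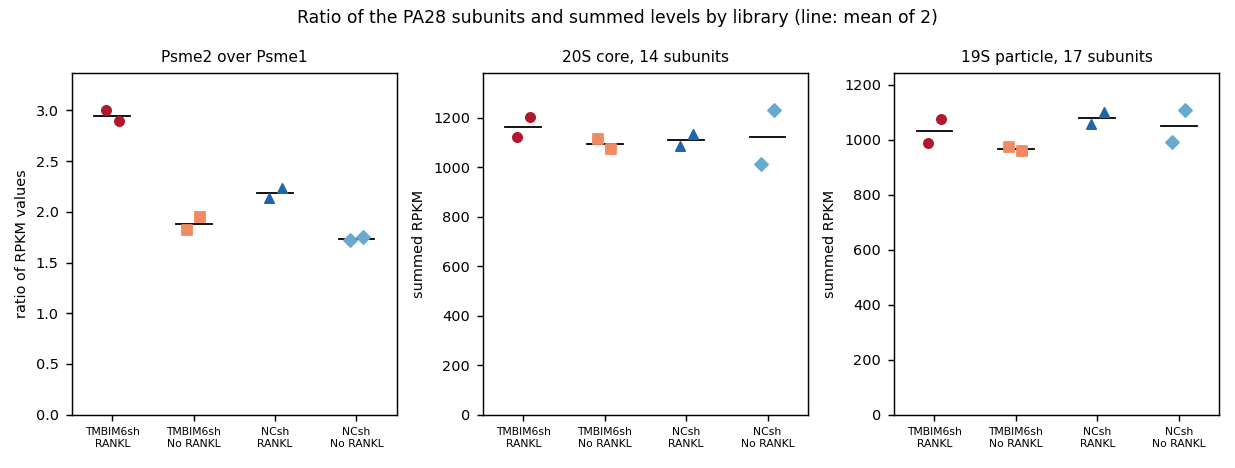
Left, the ratio of Psme2 to Psme1 in RPKM by library; middle and right, the summed RPKM of the 14 subunits of the 20S core and the 17 of the 19S cap, with a line at the mean of each group's 2 libraries. The ratio is highest in TMBIM6sh cells with RANKL, at 3.01 and 2.89, while the 20S sums of the other groups lie within the range of NCsh cells without RANKL.

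Psme3 and Psme4 encode the nuclear caps PA28-gamma and PA200. Psme3 (chr11:101316213-101323537) stood at 48.6 and 52.0 RPKM in TMBIM6sh cells with RANKL, against 44.7 and 43.5 RPKM in TMBIM6sh cells without it. NCsh cells had 41.4 and 42.3 RPKM with RANKL, against 35.6 and 35.4 RPKM without it. Neither pair of groups overlapped, and the TMBIM6sh libraries were above the NCsh libraries under each condition. With RANKL the difference was 0.23 in NCsh cells (SE 0.0587, adjusted p = 0.0286) and 0.18 in TMBIM6sh cells (adjusted p = 0.0645), where it did not pass. The NCsh call was kept in 2 of 8 fits that each left out a library, and these 2 dropped a library of TMBIM6sh cells with RANKL. It was lost under median-ratio scaling (adjusted p = 0.0987) and in a fit of its own 4 libraries (0.0736).

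Among the core subunits RANKL changed single genes in TMBIM6sh cells. Psma5 (chr3:108256926-108279952), a subunit of the outer ring, stood at 37.8 and 42.2 RPKM in TMBIM6sh cells with RANKL, against 32.2 and 28.3 RPKM in TMBIM6sh cells without it. In NCsh cells it stood at 44.1 and 42.7 RPKM with RANKL, against 37.6 and 41.2 RPKM without it. The TMBIM6sh libraries without RANKL were the lowest of all 8. The difference with RANKL was 0.39 in TMBIM6sh cells (SE 0.0829, adjusted p = 0.011) and 0.14 in NCsh cells (adjusted p = 0.298), where it did not pass. It was lost without library 2 of TMBIM6sh cells without RANKL (adjusted p = 0.108), without library 2 of TMBIM6sh cells with RANKL (0.0852) and with no filter (0.0503). Exons of Psma5 share 4.54% of their bases with an antisense gene, 1700010K24Rik, whose reads cannot be told apart because both strands were counted.

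Psmd8 (chr7:29174187-29180673), a lid subunit, stood at 174 and 192 RPKM in TMBIM6sh cells with RANKL, against 147 and 144 RPKM in TMBIM6sh cells without it. With the NCsh hairpin it had 185 and 184 RPKM with RANKL, against 158 and 179 RPKM without it. Like Psma5 it was lowest in the TMBIM6sh libraries without RANKL. The difference was 0.32 in TMBIM6sh cells (SE 0.0746, adjusted p = 0.0164) and 0.13 in NCsh cells (adjusted p = 0.277).

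Psmb7 (chr2:38588046-38643906), the subunit with trypsin-like activity, stood at 113 and 121 RPKM in TMBIM6sh cells with RANKL, against 96.1 and 92.8 RPKM in TMBIM6sh cells without it. Its NCsh values were 111 and 115 RPKM with RANKL, against 89.8 and 102 RPKM without it. All 4 libraries with RANKL were above all 4 without. The difference was 0.30 in TMBIM6sh cells (SE 0.0721, adjusted p = 0.0185) and 0.23 in NCsh cells (adjusted p = 0.0589), which passed with the replicate number as a block (0.0491) and, at 0.32, without library 2 of NCsh cells without RANKL (0.014). Without library 1 of that group the NCsh difference of Psmb7 was 0.14 (adjusted p = 0.183). The calls of Psmd8 and Psmb7 in TMBIM6sh cells were lost without either TMBIM6sh library lacking RANKL, without library 2 of TMBIM6sh cells with RANKL and with no filter, with adjusted p up to 0.119 for Psmd8 and 0.138 for Psmb7. Psmb7 shares 11.8% of its exon bases with Nek6 on the opposite strand.

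The other catalytic subunits did not pass with RANKL. Psmb5 (chr14:54614120-54617995), with chymotrypsin-like activity and the target of bortezomib, stood at 65.0 and 76.0 RPKM in TMBIM6sh cells with RANKL, against 70.4 and 69.9 RPKM in TMBIM6sh cells without it. For NCsh cells the values were 84.6 and 85.9 RPKM with RANKL, against 78.2 and 99.3 RPKM without it. Psmb6 (chr11:70525357-70527858), with caspase-like activity, stood at 108 and 107 RPKM in TMBIM6sh cells with RANKL, against 112 and 103 RPKM in TMBIM6sh cells without it. In NCsh cells Psmb6 stood at 93.6 and 110 RPKM with RANKL, against 98.0 and 123 RPKM without it. The RANKL groups overlapped or lay within their counterparts for both genes. The 95% intervals with RANKL were -0.24 to 0.24 for Psmb5 and -0.24 to 0.25 for Psmb6 in TMBIM6sh cells, and -0.29 to 0.19 and -0.36 to 0.13 in NCsh cells.

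**Figure D4:**
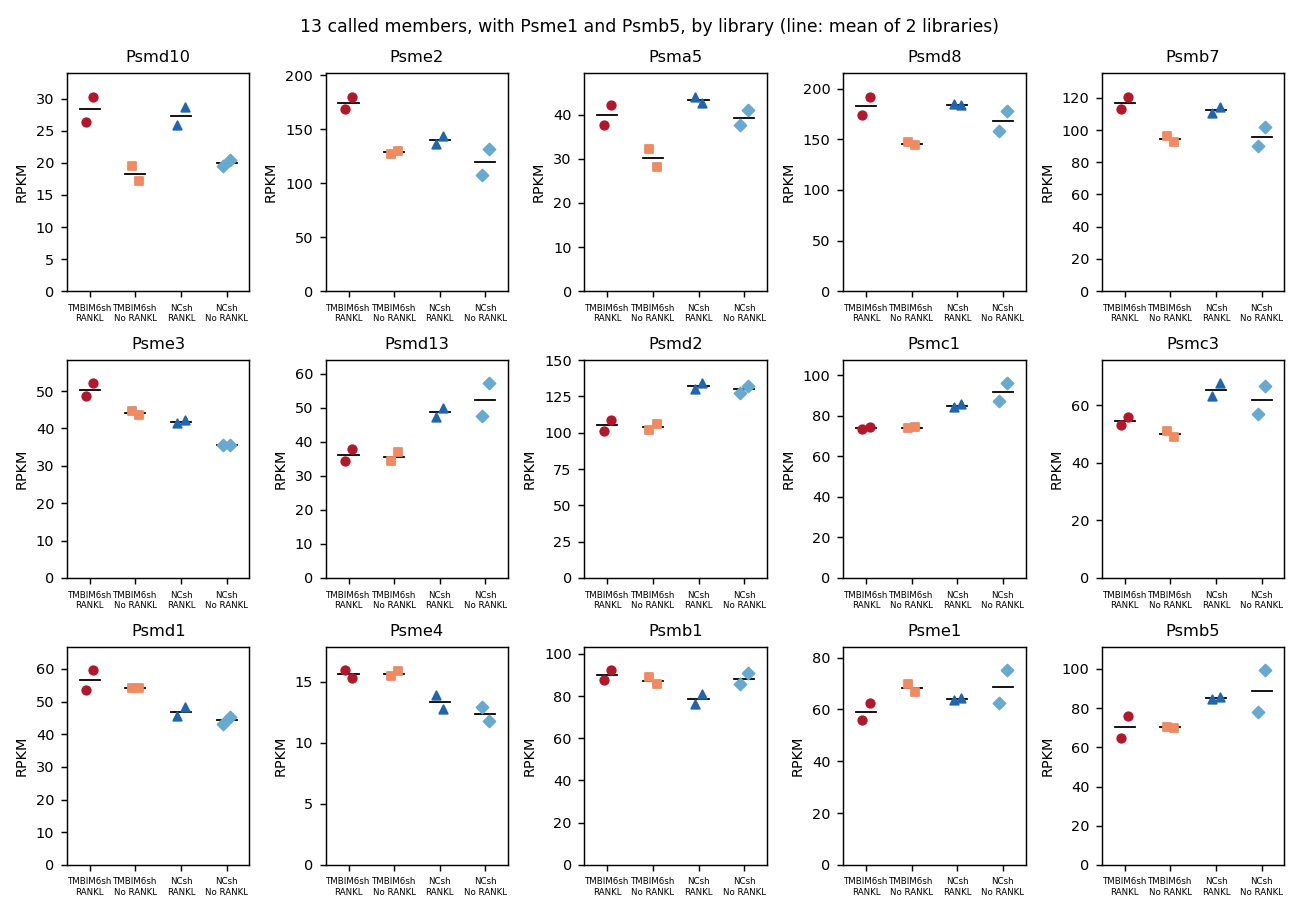
RPKM by library of the 13 genes called in at least 1 comparison, with Psme1 and Psmb5, by group, with a line at the mean of 2 libraries. Psmd10 and Psmb7 are higher in all 4 libraries with RANKL, and Psmd13, Psmd2, Psmc1 and Psmc3 are lower in all 4 TMBIM6sh libraries.

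The RANKL responses under the hairpins use different libraries and can be set side by side. Their differences had the same sign in 33 of 41 genes, with Pearson's r of 0.780 and Spearman's rho of 0.727 across genes, which are not independent replicates. Of the 5 genes called in TMBIM6sh cells 1 (20%) was called in NCsh cells, and of the 2 called there 1 (50%) was called in TMBIM6sh cells. Sign agreement, correlations and shared calls were not computed over all genes, so they do not set the 41 genes apart. The interaction, which tests whether the RANKL response differed between hairpins, called 0 of the 41 genes in either direction in limma, where 0% and 0.00906% of all genes were called. At an unadjusted p under 0.05 it took 1 member, Psmb1 (0.21, adjusted p = 0.633), and 857 of all genes. The median interaction over the 41 genes was 0.05, and it was 0.15 without library 1 and -0.04 without library 2 of NCsh cells without RANKL. The interval of the interaction was -0.12 to 0.45 for Psmd10, -0.01 to 0.52 for Psma5 and -0.08 to 0.48 for Psme2, so the response was not shown to differ for these genes.

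The hairpin comparison asked how TMBIM6sh cells differed from NCsh cells under each condition. With RANKL 4 of the 41 genes were higher and 4 lower in TMBIM6sh cells (9.76% each), where 8.93% of all genes tested were higher and 19.7% lower. Without RANKL 3 were higher (7.32%) and 5 lower (12.2%), where 10.4% of all genes were higher and 13.8% lower. The median over the 41 genes was 0.03 with RANKL, against -0.07 over all genes, and -0.02 without RANKL, against -0.02. Under median-ratio scaling the counts with RANKL were 8 higher and 2 lower, and over all genes 1609 were higher and 1620 lower in place of 986 and 2171. Without library 1 of NCsh cells without RANKL, the comparison without RANKL had a median of -0.14 over the 41 genes, against -0.04 over all genes. Without library 2 of that group the median was 0.07, against -0.01 over all genes.

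4 subunits of the 19S cap were lower in TMBIM6sh cells under both conditions, 2 of them non-ATPases and 2 ATPases. Psmd13 (chr7:140882394-140898642), a lid subunit, had the largest difference. It stood at 34.5 and 38.0 RPKM in TMBIM6sh cells with RANKL, against 47.4 and 50.1 RPKM in NCsh cells with RANKL. In the absence of RANKL the values were 34.3 and 37.1 RPKM in TMBIM6sh cells, against 47.5 and 57.2 RPKM in NCsh cells. All 4 TMBIM6sh libraries were below all 4 NCsh libraries. The difference was -0.42 with RANKL (SE 0.0912, adjusted p = 0.00794) and -0.54 without (SE 0.0912, adjusted p = 0.00257). The second was called under all 13 alternatives. The first was lost without library 2 of NCsh cells with RANKL or library 1 of TMBIM6sh cells with RANKL, with adjusted p up to 0.0644. As a ratio to the median of the 31 standard subunits in the same library, Psmd13 was 0.567 and 0.588 in TMBIM6sh cells with RANKL, against 0.781 and 0.747 in NCsh cells with RANKL. Without RANKL this ratio was 0.559 and 0.589 in TMBIM6sh cells, against 0.834 and 0.860 in NCsh cells.

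Psmd2 (chr16:20651652-20663414), the scaffold of the 19S base that docks ubiquitin receptors and shuttles, stood at 102 and 109 RPKM in TMBIM6sh cells with RANKL, against 130 and 134 RPKM in NCsh cells with RANKL. Without RANKL it stood at 102 and 106 RPKM in TMBIM6sh cells, against 128 and 132 RPKM in NCsh cells. The TMBIM6sh and NCsh libraries did not overlap, and the differences with RANKL within a hairpin were 0.01 and 0.02. The difference was -0.32 under both conditions (SE 0.061 each, adjusted p = 0.00378 with RANKL and 0.00493 without). The call with RANKL was kept under all 13 alternatives, and the call without RANKL was lost only without library 1 of TMBIM6sh cells without RANKL (adjusted p = 0.0617).

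Psmc1 (chr12:100112331-100123364) and Psmc3 (chr2:91054016-91059438) encode ATPases of the unfolding ring. Psmc1 stood at 73.4 and 74.7 RPKM in TMBIM6sh cells with RANKL, against 84.3 and 85.8 RPKM in NCsh cells with RANKL. Where RANKL was left out it had 73.8 and 74.7 RPKM in TMBIM6sh cells, against 87.3 and 96.0 RPKM in NCsh cells. Psmc3 stood at 53.2 and 55.7 RPKM in TMBIM6sh cells with RANKL, against 63.1 and 67.5 RPKM in NCsh cells with RANKL, and without RANKL at 51.2 and 48.8 RPKM in TMBIM6sh cells, against 57.0 and 66.5 RPKM in NCsh cells. For both ATPases every TMBIM6sh library was below every NCsh library.

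For Psmc1 the difference was -0.20 with RANKL (SE 0.0612, adjusted p = 0.0377) and -0.30 without (adjusted p = 0.00677). For Psmc3 it was -0.26 with RANKL (SE 0.0787, adjusted p = 0.0356) and -0.30 without (adjusted p = 0.0229). With RANKL each was kept in 2 of 8 fits that left out a library, and these 2 dropped a library of NCsh cells without RANKL. Each was thus lost without any 1 of the 4 libraries compared. Both were also lost with no filter, and neither passed under median-ratio scaling (adjusted p = 0.137 for Psmc1 and 0.096 for Psmc3). Without RANKL both were lost without either TMBIM6sh library lacking RANKL, with adjusted p up to 0.0617 for Psmc1 and 0.142 for Psmc3, and Psmc3 also without library 2 of NCsh cells without RANKL, in a fit of its own 4 libraries (0.055) and with no filter. The 4 other ATPases, Psmc2, Psmc4, Psmc5 and Psmc6, were called in no comparison.

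Psmd1 (chr1:86064619-86139295), the other large scaffold of the 19S base, was higher in TMBIM6sh cells, opposite to Psmd2. It stood at 53.6 and 59.6 RPKM in TMBIM6sh cells with RANKL, against 45.5 and 48.2 RPKM in NCsh cells with RANKL. In the absence of RANKL the values were 54.1 RPKM in both TMBIM6sh libraries, against 43.2 and 45.4 RPKM in NCsh cells. The difference was 0.27 with RANKL (SE 0.0676, adjusted p = 0.0164) and 0.28 without (SE 0.0676, adjusted p = 0.0141). With RANKL it was lost without library 1 of NCsh cells with RANKL or library 2 of TMBIM6sh cells with RANKL (adjusted p up to 0.119), and without RANKL without either TMBIM6sh library lacking RANKL (up to 0.0848). Its exons share 4.14% of their bases with Gm21972 and 3.47% with Htr2b.

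Psme3, whose levels are given above, was also higher in TMBIM6sh cells under both conditions, by 0.26 with RANKL (SE 0.0587, adjusted p = 0.00953) and 0.31 without (adjusted p = 0.00493). With RANKL it was lost without library 1 of NCsh cells with RANKL or library 2 of TMBIM6sh cells with RANKL (adjusted p up to 0.0703), and without RANKL without library 1 of TMBIM6sh cells lacking it (0.0549). Psme4 (chr11:30771775-30880361) stood at 15.9 and 15.3 RPKM in TMBIM6sh cells with RANKL, against 13.9 and 12.8 RPKM in NCsh cells with RANKL. Without RANKL it stood at 15.5 and 15.8 RPKM in TMBIM6sh cells, against 12.9 and 11.8 RPKM in NCsh cells. All 4 TMBIM6sh libraries were above all 4 NCsh libraries, and the difference passed without RANKL (0.32, SE 0.0732, adjusted p = 0.012) and missed with RANKL (0.21, adjusted p = 0.0543). The call was lost without library 2 of NCsh cells without RANKL or either TMBIM6sh library lacking RANKL (adjusted p up to 0.0801).

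Psme2 was higher in TMBIM6sh cells with RANKL by 0.31 (SE 0.0886, adjusted p = 0.0253), a call lost without any 1 of the 4 libraries compared (adjusted p up to 0.146) and with no filter, and by 0.11 without RANKL, which did not pass (adjusted p = 0.407). Psma5 was lower in TMBIM6sh cells without RANKL (-0.37, SE 0.0829, adjusted p = 0.0103), lost without library 2 of that group (0.0971), and differed by -0.12 with RANKL, which did not pass (adjusted p = 0.319). These RANKL and hairpin differences of Psma5 share the low TMBIM6sh libraries without RANKL, and those of Psme2 share the high TMBIM6sh libraries with RANKL.

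Psmb1 (chr17:15475721-15498276), a structural beta subunit, stood at 87.6 and 92.2 RPKM in TMBIM6sh cells with RANKL, against 76.2 and 81.0 RPKM in NCsh cells with RANKL. Where RANKL was left out it had 88.8 and 85.9 RPKM in TMBIM6sh cells, against 85.5 and 91.1 RPKM in NCsh cells. The NCsh libraries with RANKL were the lowest of the 8. The difference with RANKL was 0.19 (SE 0.0628, adjusted p = 0.0463). It was kept in 2 of 8 fits that left out a library, and these 2 dropped a library of NCsh cells without RANKL. With no filter it was lost. The difference without RANKL was -0.02 (adjusted p = 0.893).

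Psmb5 was lower in all 4 TMBIM6sh libraries than in the 4 NCsh libraries, at 65.0 to 76.0 RPKM against 78.2 to 99.3 RPKM, but neither difference passed in limma (-0.27 with RANKL, adjusted p = 0.0826, and -0.33 without, adjusted p = 0.0523). Psmb6 and Psmb7 differed by 0.08 and 0.05 with RANKL, and by -0.03 and -0.02 without, and were not called. Exons of Psmb5 share 12.1% of their bases with the miRNA gene Mir686. The 95% interval with RANKL was -0.16 to 0.33 for Psmb6 and -0.11 to 0.21 for Psmb7.

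Hairpin differences with and without RANKL also use different libraries. They had the same sign in 28 of 41 genes, with Pearson's r of 0.819 and Spearman's rho of 0.760 across genes. Of the 4 genes lower with RANKL 4 (100%) were lower without it, and of the 5 lower without it 4 (80%) were lower with it: Psmc1, Psmc3, Psmd2 and Psmd13. Of the 4 genes higher with RANKL 2 (50%) were higher without it, and of the 3 higher without it 2 (66.7%) were higher with it: Psmd1 and Psme3. Over all genes 2171 were called lower with RANKL and 1526 without it, and how many were shared was not counted. Sign agreement and correlations were likewise not computed over all genes, so these values do not set the 41 genes apart. Groups did not overlap for 10 genes above and 12 below with RANKL, where 23.7% and 42.7% of all genes did the same, and for 5 above and 10 below without RANKL, where 27.7% and 33.9% did.

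The immunoproteasome subunits Psmb8, Psmb9 and Psmb10 replace Psmb5, Psmb6 and Psmb7 in newly made cores of immune cells and cut other peptides for MHC class I. Psmb9 and Psmb10 were higher with RANKL in TMBIM6sh cells, by 0.34 and 0.31 (adjusted p = 0.0468 and 0.0104). In NCsh cells their differences with RANKL were 0.31 and -0.08, which did not pass (adjusted p = 0.0633 and 0.452). The interaction was 0.03 for Psmb9 and 0.39 for Psmb10, and neither was called (adjusted p = 0.971 and 0.545). Both were lower in TMBIM6sh than NCsh cells without RANKL (-0.35 each, adjusted p = 0.0279 and 0.00388), and Psmb9 also with RANKL (-0.33, adjusted p = 0.0336). Psmb8 was not called. The ratio of Psmb5 to Psmb8 was 1.08 and 1.21 in TMBIM6sh cells with RANKL, against 1.49 and 1.40 in NCsh cells with RANKL. Without RANKL this ratio was 1.26 and 1.30 in TMBIM6sh cells, against 1.44 and 1.55 in NCsh cells. The ratio of Psmb6 to Psmb9 was 6.09 and 5.48 in TMBIM6sh cells with RANKL, against 3.89 and 4.73 in NCsh cells with RANKL, and 8.32 and 6.56 in TMBIM6sh cells without RANKL, against 5.69 and 5.98 in NCsh cells without it. That of Psmb7 to Psmb10 was 3.76 and 4.05 in TMBIM6sh cells with RANKL, against 3.78 and 3.95 in NCsh cells with RANKL, and 4.04 and 3.85 in TMBIM6sh cells without RANKL, against 3.06 and 3.13 in NCsh cells without it. The pairs did not run alike: TMBIM6sh libraries lay below NCsh libraries under each condition for Psmb5 to Psmb8 and above them for Psmb6 to Psmb9, while for Psmb7 to Psmb10 they lay above without RANKL and overlapped with it. These ratios were given no test. Exons of Psmb8 share 14.9% of their bases with an antisense gene, Gm20496, and both strands were counted.

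Genes that work with the proteasome were counted from further lists. Their calls are to be read beside the shares of all genes called in each comparison, given above. Of the 5 assembly factors of the 20S core 0 were called in any comparison, and at an unadjusted p under 0.05 limma took 1, Psmg2, in the RANKL comparison of NCsh cells (0.19, adjusted p = 0.13), where 3331 of the 11040 genes tested passed likewise. Among 17 receptors, deubiquitinases, shuttles and regulators, Zfand5, an activator that opens the proteasome, was higher in TMBIM6sh cells by 0.55 with RANKL and 0.45 without, and by 0.21 with RANKL in TMBIM6sh cells. In NCsh cells Zfand5 differed with RANKL by 0.11, which did not pass (adjusted p = 0.247). The ubiquitin ligase Ube3c was higher in TMBIM6sh cells by 0.25 with RANKL and 0.30 without, Uchl5, a deubiquitinase, by 0.22 with RANKL, and Ubqln1, a shuttle, by 0.31 without RANKL. Akirin2, which brings the proteasome into the nucleus, was lower by 0.22 in TMBIM6sh than in NCsh cells, both with RANKL. Usp14, a deubiquitinase of the 19S cap, was higher by 0.27 with RANKL in NCsh cells. Its mean in TMBIM6sh cells was 26.3 RPKM with RANKL, against 25.0 RPKM without it. The remaining genes of that list were not called.

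Among 10 genes around NRF1, the factor that induces proteasome genes when the proteasome is inhibited, Nfe2l1 itself was higher with RANKL in NCsh cells by 0.33. In TMBIM6sh cells Nfe2l1 differed with RANKL by 0.16, which did not pass (adjusted p = 0.111). Nfe2l2 (NRF2) was lower in TMBIM6sh cells with RANKL (-0.40) and without (-0.22), and lower with RANKL in TMBIM6sh cells (-0.24). Nfe2l2 stood at 53.3 and 55.9 RPKM in TMBIM6sh cells with RANKL, against 71.8 and 72.8 RPKM in NCsh cells with RANKL. Of its dimer partners, Maff was higher with RANKL in TMBIM6sh cells (0.41) and lower in TMBIM6sh than NCsh cells without RANKL (-0.46), and Mafg was higher there (0.25). In NCsh cells Nfe2l2 and Maff differed with RANKL by -0.05 and 0.02, which did not pass (adjusted p = 0.59 and 0.911). Ddi2, the protease that activates NRF1, was lower in TMBIM6sh than in NCsh cells, both with RANKL (-0.28). Of 7 ubiquitin genes and E1 enzymes, Uba1 alone was called, lower in TMBIM6sh cells without RANKL (-0.25), where 13.8% of all genes tested were lower. No gene of these further lists was called in the interaction.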

How the data were processed

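The authors deposited RPKM values per gene for 8 libraries in 1 table. Per the file header they were made with HOMER's analyzeRepeats on mm10, counting tags in exons of RefSeq genes on both strands and condensing isoforms to 1 entry per gene. Column heads name FPKM, but the header's command names RPKM, which was taken as the unit. The submitters' processing notes also name HISAT2 and DESeq2, and their versions are not given in the sources used here.

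Depth was recovered from low values, which are whole multiples of the value of a single tag: of 3152 to 3471 values checked per library 99.97% to 100% were whole within 0.1 tags. The depths were 25475000 to 28595000 tags, of which 83.5% to 86.4% lay in exons. Genes with at least 1 RPKM in at least 2 libraries were kept (11040). A model with a mean for each group was fitted to log2(RPKM + 1) by limma 3.58.1 (R 4.3.3) with an intensity trend (4 residual and 5.54 prior degrees of freedom). Log2 differences on this scale understate the change of low genes. Benjamini-Hochberg adjustment covered all genes tested, with a threshold of 0.05. The 5 comparisons were RANKL under each hairpin, TMBIM6sh minus NCsh with and without RANKL, and the interaction.

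The fit was tested on simulated data, where it missed most of the smallest changes and made false calls at more than the nominal rate. The 13 alternatives for a pairwise comparison were median-ratio scaling, a pseudocount of 0.1, no filter, a replicate block, a fit of the 4 libraries compared, and leaving out each of 8 libraries. Exon overlaps came from GENCODE vM21 and promoters from RefSeq, of which some sequence is not reported here. Values were given in every library for Psmb5, Psmb6, Psmb7, Psme1 to Psme4 and the members called, and the called genes of other lists were named. The members and lists were chosen with earlier results of these data known.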

Additional observations from a re-analysis of the deposited data

How the results depend on the processing

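Of the counts of genes called, those under a pseudocount of 0.1 and with the replicate number as a block stayed within 1.5 times the values reported. The replicate numbers 1 and 2 are shared by the groups, and deviations of same-numbered libraries correlated across genes at only -0.0651 to 0.0625. Over all genes tested these values show no deviation shared by number, and they were not computed for the 41 genes alone. They cannot tell whether same-numbered samples came from the same animal or culture. Of the 41 genes 33 and 14 were higher in library 2 of TMBIM6sh cells with and without RANKL. For NCsh cells these counts were 30 and 37, and the shares over all genes are given above. With the replicate number as a block, 5 genes were higher and 0 lower with RANKL in TMBIM6sh cells, 3 and 0 in NCsh cells, 5 and 5 in TMBIM6sh cells with RANKL, and 3 and 6 in TMBIM6sh cells without it.

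With RANKL in NCsh cells 1 gene was higher under median-ratio scaling, with no filter and in a fit of the 4 libraries compared, in place of 2, and 2 were lower under scaling in place of 0. With RANKL in TMBIM6sh cells 1 was higher with no filter in place of 5. In TMBIM6sh cells with RANKL 8 were higher and 2 lower under scaling, and 2 higher and 2 lower with no filter, in place of 4 and 4. Scaling moved all genes too: 787 were higher and 850 lower with RANKL in NCsh cells, in place of 1214 and 439. With no filter 18292 genes were tested in place of 11040. Of all genes 719 were then higher with RANKL in TMBIM6sh cells, in place of 942. In TMBIM6sh cells with RANKL 796 were higher and 1727 lower than in NCsh cells, in place of 986 and 2171. The cause of the other shifts was not tested.

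Leaving out each library in turn gave 1 to 6 genes higher and 0 to 1 lower with RANKL in TMBIM6sh cells, where the lowest counts came without library 2 of TMBIM6sh cells, with or without RANKL. In NCsh cells it gave 1 to 3 higher and 0 lower, with 1 higher without library 1 of NCsh cells lacking RANKL, either library of NCsh cells with RANKL or either of TMBIM6sh cells lacking it. For TMBIM6sh cells with RANKL it gave 0 to 7 higher and 1 to 5 lower, with 0 higher without library 1 of NCsh cells with RANKL or library 2 of TMBIM6sh cells with RANKL, and 1 lower without library 2 of NCsh cells with RANKL or library 1 of TMBIM6sh cells with RANKL. For TMBIM6sh cells without RANKL it gave 0 to 7 higher and 2 to 8 lower, with 0 higher and 2 lower without library 1 of those cells. The interaction stayed at 0. With 2 libraries a group, a group left with 1 library is assumed to vary like the others. No value changed sign among the called genes under the alternatives run. At the lowest, a standard subunit had 972 tags in a library, and Psmc3ip 47.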
